A study of Mus musculus with 6 samples.

Results

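The genes described here are 39 interferon-stimulated antiviral genes and the transcription factors that switch them on, out of 22086 genes counted in ribosome-bound mRNA from hippocampal astrocytes. They were chosen by name from what is known of the interferon response, and each gene was read from its most abundant transcript over the 6 libraries. The question of the study was how astrocytes lacking connexin 43 (Cx43, encoded by Gja1) differ from astrocytes that have it. Both groups of mice were 6 weeks old, carried Cx43 fl/fl alleles and a heterozygous Aldh1l1:L10a-eGFP transgene, which places a GFP-tagged ribosomal protein in cells that use the astrocyte promoter Aldh1l1. The Cx43KO group carried hGfap-Cre in addition, a recombinase under the human Gfap promoter, which is active in astrocytes and in neural progenitors, and the Cx43FL group (Littermates) did not. Tagged ribosomes were pulled down from whole hippocampi by translating ribosome affinity purification (TRAP), and 3 libraries were made per genotype. How many mice entered a library was not given in the sources used here, so the p-values measure the spread between libraries only.

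Interferons are cytokines that cells release on sensing viral nucleic acid. Type I interferons bind the IFNAR1 and IFNAR2 receptor, whose kinases JAK1 and TYK2 activate a complex holding STAT2 and IRF9 that binds the interferon-stimulated response element (ISRE) in the promoters of antiviral genes. Interferon gamma uses another receptor with JAK1 and JAK2, and its signal reaches the gamma-activated site (GAS). Astrocytes express both receptors and are known to mount both programs.

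The libraries carried 33423491 to 77030398 counts on transcripts, the library labelled Cx43KO replicate 3 being the deepest and all those labelled Cx43KO deeper than all those labelled Cx43FL. Gja1, the gene targeted for deletion, did not go down with the label: it was at 92.0, 91.7 and 82.3 CPM (counts scaled to a common library total) in the Cx43FL libraries and 87.2, 98.4 and 95.1 CPM in the libraries labelled Cx43KO (log2 fold change 0.08, SE 0.28, adjusted p = 0.949). The counts are totals over a transcript and do not separate the deleted part from the rest. Genotype names below are therefore those of the labels. The summed level of 7 astrocyte markers was 15565 to 19533 CPM in Cx43FL, and 9842, 18441 and 28021 CPM in the libraries labelled Cx43KO replicates 1, 2 and 3. Replicate 1 of Cx43KO stood apart, with the lowest astrocyte sum and the highest sums of 6 neuron markers (3901 CPM, 1432 to 3119 CPM elsewhere) and of 5 oligodendrocyte markers (2127 CPM, 507 to 823 CPM elsewhere). The counts and the genes with the lowest p are given with and without this library. In bulk samples, fewer cells of a type and less RNA per cell cannot be told apart.

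The promoters describe these genes apart from the counts. RefSeq promoters (GRCm38.p6, 250 bases before to 50 after a start site) were matched for 29 of the 39 genes. The ISRE letters GAAANNGAAA, on either strand, stood in the promoters of 12 of the 29 genes (41.4%), against 3.44% of 32851 promoters and 3.99% of 27025 genes. The GAS letters TTCNNNGAA, which read the same way on both strands, stood in 7 of the 29 (24.1%), against 8.30% of promoters and 9.55% of genes. A match describes letters in this window and is not evidence of binding. The 160 bases printed below end at the RefSeq start site except in Stat2, where they run from 250 to 91 bases upstream; ISRE matches, or the GAS match in Irf1, are in capitals. Each is written 5′ to 3′ on the strand of the gene, so a match on the other strand appears as its reverse complement. They were chosen because Ifit1, Ifit3, Trim30a, Oasl2 and Stat2 are among the genes with the lowest p below, and because Isg15 and Irf1 are textbook targets of the ISRE and the GAS.
Ifit1, chr19:34640729-34640888, + strand: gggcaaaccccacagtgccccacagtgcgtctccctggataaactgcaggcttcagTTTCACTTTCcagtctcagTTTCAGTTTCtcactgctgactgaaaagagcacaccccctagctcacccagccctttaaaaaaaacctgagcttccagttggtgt
Ifit3, chr19:34583369-34583528, + strand: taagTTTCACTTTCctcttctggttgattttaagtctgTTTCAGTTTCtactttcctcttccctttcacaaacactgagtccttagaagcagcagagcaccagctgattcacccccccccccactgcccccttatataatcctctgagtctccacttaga
Trim30a, chr7:104465194-104465353, - strand: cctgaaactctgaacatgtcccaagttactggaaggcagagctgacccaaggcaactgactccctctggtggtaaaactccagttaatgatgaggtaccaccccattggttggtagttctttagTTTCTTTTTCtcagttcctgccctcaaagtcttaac
Isg15, chr4:156200819-156200978, - strand: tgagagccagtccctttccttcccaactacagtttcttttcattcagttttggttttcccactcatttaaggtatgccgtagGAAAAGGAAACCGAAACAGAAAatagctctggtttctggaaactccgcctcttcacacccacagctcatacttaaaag
Stat2, chr10:128270248-128270407, + strand: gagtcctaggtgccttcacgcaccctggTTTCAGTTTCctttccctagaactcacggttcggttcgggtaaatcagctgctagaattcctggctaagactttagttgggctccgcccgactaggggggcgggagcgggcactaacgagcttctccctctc
Oasl2, chr5:114896774-114896933, + strand: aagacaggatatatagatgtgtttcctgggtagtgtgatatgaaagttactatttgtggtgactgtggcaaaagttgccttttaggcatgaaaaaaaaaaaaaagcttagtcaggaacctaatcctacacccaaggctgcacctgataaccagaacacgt
Irf1, chr11:53769854-53770013, + strand: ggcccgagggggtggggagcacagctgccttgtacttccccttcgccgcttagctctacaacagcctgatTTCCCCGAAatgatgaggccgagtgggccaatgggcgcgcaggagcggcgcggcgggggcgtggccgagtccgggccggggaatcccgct
Ifit1 and Ifit3 each hold separate ISRE matches close to the start site, and the matches of Isg15 overlap in a single run. Oasl2 has no ISRE match in this window.

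The antiviral genes were high in the libraries labelled Cx43KO replicates 2 and 3 and low in replicate 1. Their summed level was 460, 482 and 453 CPM in the Cx43FL libraries, and 332, 1083 and 1051 CPM in Cx43KO replicates 1, 2 and 3. Of the 39 genes, 29 lay above all 3 Cx43FL libraries in replicate 2 and 23 did so in replicate 3, whereas 18 lay below all of them in replicate 1. Of all tested genes, 28.7%, 30.7% and 36.6% did the same. The 39 include genes with too few counts to be tested, such as Oasl1, which was above in replicate 3 on 1 count. As medians over the 32 genes with enough counts to be tested, the log2 ratio to the Cx43FL mean was -1.09, 1.41 and 0.75 in the 3 replicates, with all genes between -0.05 and -0.04. The 3 Cx43FL libraries lay within -0.07 and 0.00 of their mean. Each of them is part of that mean, which brings it closer, so these values cannot be set directly against those of Cx43KO.

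**Figure D1:**
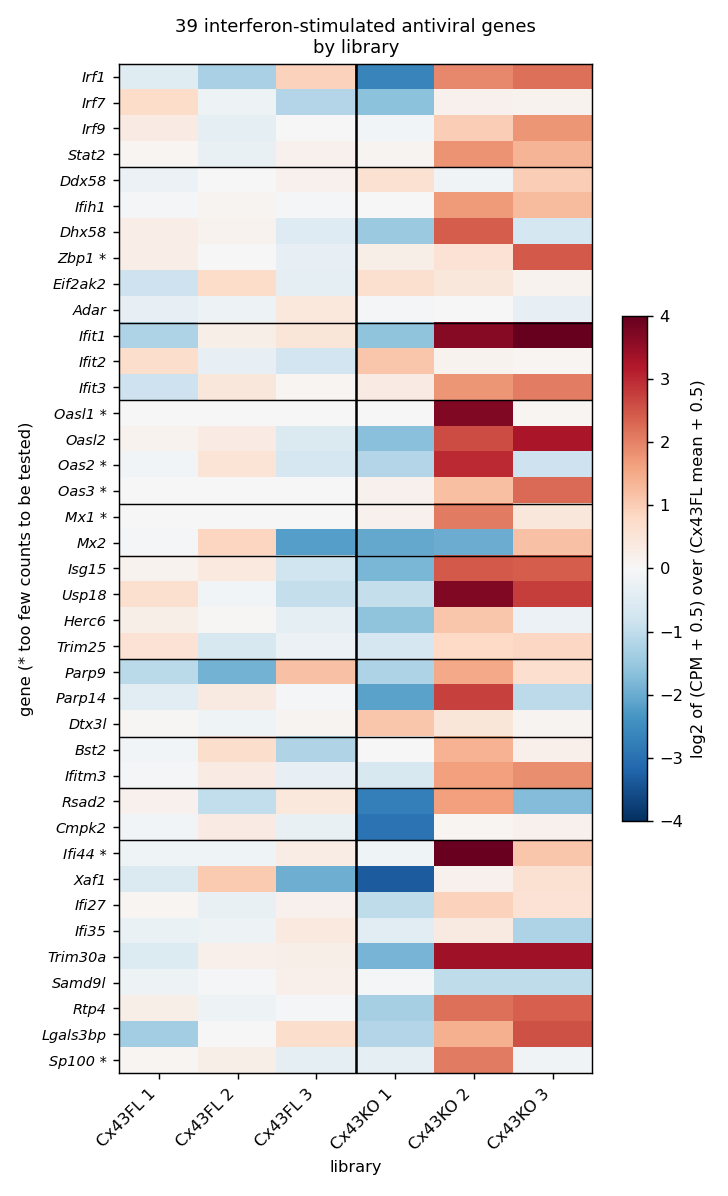
Level of the 39 antiviral genes (rows, by role) in the 6 libraries (columns) as log2 of CPM + 0.5 over the Cx43FL mean + 0.5, red being higher and blue lower; an asterisk marks the 7 genes with too few counts to be tested, and the colour scale is capped. Columns Cx43KO 2 and 3 are mostly red and column Cx43KO 1 mostly blue.

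No antiviral gene passed the test between genotypes. With edgeR's quasi-likelihood test and Benjamini-Hochberg adjustment over 13545 genes, 0 of 32 were called and the lowest adjusted p was 0.540, where a call needs an adjusted p under 0.05 with over 50 normalized counts on average in the higher group. Over all genes tested, 1 was called (0.00738%). DESeq2 with its normal prior, the study's own tool, called 0 of 31 as well, the lowest adjusted p being 0.0947, although it called 113 genes higher in Cx43KO (0.827% of those tested). DESeq2 without the prior called 1 of 34 (Ifit1, log2 fold change 3.80), against 147 genes called higher in all (1.03%). At an unadjusted p under 0.05, 6 of the 32 (18.8%) were higher in Cx43KO, against 5.66% of all genes, and 0 were lower, against 2.67%. Log2 fold changes were positive in 25 of the 32 (78.1%), against 54.4% of all genes, with a median of 0.73 against 0.07. The 32 passed a filter on low counts, which a gene high in one group passes more easily, so these shares describe the tested genes and not all 39.

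Cx43KO replicate 1 had the lowest median log2 ratio of the tested antiviral genes (-1.09). Leaving it out thus raises their fold changes as a group by construction, and the values below are no separate support. With Cx43KO replicate 2 or 3 left out instead, 1 of 32 and 0 of 33 had an unadjusted edgeR p under 0.05. Without Cx43KO replicate 1, 14 of the 32 genes of the main fit (43.8%) were higher at that p, against 5.17% of all genes. Their median log2 fold change was then 1.09, against 0.00 over all genes. In this fit 35 of the 39 genes passed the filter, and 16 of them (45.7%) were higher at that level, but Oas2, Oas3 and Ifi44, which joined the 32, had most of their counts in the remaining Cx43KO libraries and passed the filter through them. None of the 35 was lower (3.44% of all genes). Oasl2 alone was called (log2 fold change 3.04, adjusted p = 0.0214, edgeR), among 11 genes called in all (0.0788%). Ifit1 then had a log2 fold change of 4.38 (adjusted p = 0.0586), Ifitm3 of 1.76 (adjusted p = 0.0664) and Trim30a of 3.71 (adjusted p = 0.0879). The values were 1.96 for Ifit3, 1.64 for Stat2, 1.47 for Irf9, 2.17 for Irf1 and 2.75 for Isg15, with adjusted p between 0.358 and 0.454.

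Shares outside the Cx43FL range differed between the Cx43KO libraries. In replicate 2, 22 of the 32 tested genes (68.8%) lay above all Cx43FL libraries, against 28.7% of all genes, and 1 lay below (27.5%). In replicate 3, 18 lay above (56.2%, against 30.7%) and 5 below (15.6%, against 29.1%). In replicate 1, 3 lay above (9.38%, against 37.9%) and 17 below (53.1%, against 36.6%). In 9 genes (28.1%) replicates 2 and 3 were both above and replicate 1 below, a pattern of 2.79% of all genes.

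**Figure D2:**
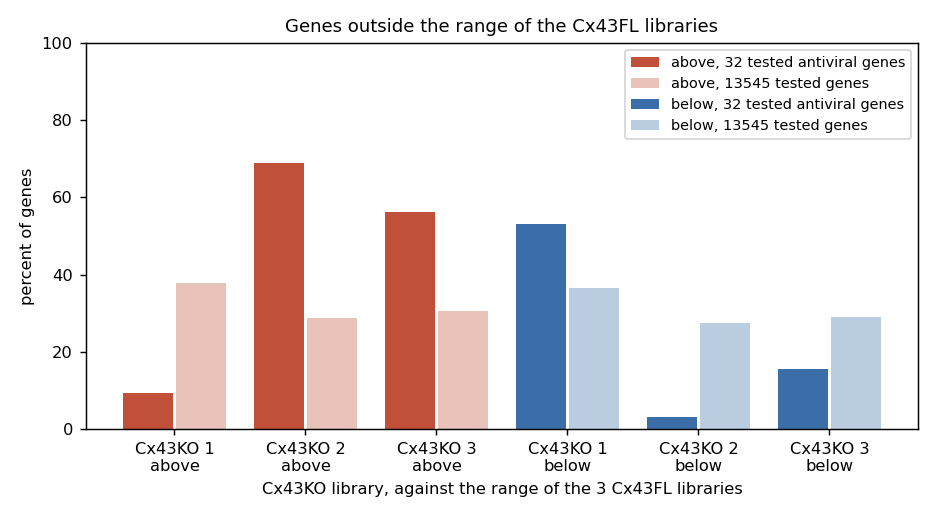
Percent of the 32 tested antiviral genes (dark bars) and of all 13545 tested genes (pale bars) lying above (red) or below (blue) all 3 Cx43FL libraries, for each library labelled Cx43KO. Replicates 2 and 3 exceed the background above the range (68.8% and 56.2%) and replicate 1 exceeds it below the range (53.1%).

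Complete separation of the genotypes was seen in too few tested genes for the count to be a result about the list. Of the 32 tested genes, 1 (Dtx3l) had every Cx43KO library above every Cx43FL library, against 8.08% of all genes, and 0 had every one below, against 7.45%. Oas3 and Mx1, too low to be tested, also had this order, with 1 count in Cx43KO replicate 1 and 0 in each Cx43FL library. Dtx3l, a ubiquitin ligase that works with PARP9, was at 15.1, 12.9 and 15.6 CPM in Cx43FL and 32.2, 20.5 and 15.7 CPM in Cx43KO. Its lowest Cx43KO library and its highest Cx43FL library were nearly equal, and its highest value was in replicate 1, unlike most other genes of the group (log2 fold change 0.65, SE 0.49, adjusted p = 0.703; exact permutation p = 0.1, the smallest that 3 against 3 allows). It was the 1 gene of the 32 at that p.

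Among the transcription factors, Stat2 and Irf9, which act in the ISRE-binding complex, were higher in Cx43KO replicates 2 and 3 than in any Cx43FL library. Stat2 was at 10.5, 8.09 and 11.3 CPM in Cx43FL and 10.8, 36.2 and 26.1 CPM in Cx43KO (log2 fold change 1.29, SE 0.57, adjusted p = 0.592). Replicate 1 of Cx43KO fell inside the Cx43FL range. Irf9 was at 12.3, 7.30 and 9.57 CPM in Cx43FL and 8.94, 19.9 and 34.2 CPM in Cx43KO (log2 fold change 1.11, SE 0.61, adjusted p = 0.615), again with replicate 1 inside the range.
Irf1, an early factor that interferon gamma induces through a GAS, was at 3.62, 1.86 and 10.4 CPM in Cx43FL and 0.435, 21.7 and 26.1 CPM in Cx43KO (log2 fold change 1.60, SE 1.12, adjusted p = 0.678). Its Cx43KO libraries lay on both sides of the Cx43FL range. Irf7, which amplifies type I interferon production, was low throughout, at 2.11, 0.862 and 0.195 CPM in Cx43FL and 0, 1.25 and 1.20 CPM in Cx43KO (log2 fold change -0.35, SE 1.54, adjusted p = 0.962), and the groups overlapped.

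The IFIT proteins bind viral RNA and block its translation. Their genes lie together on chromosome 19 (Ifit2 at chr19:34550694-34576419, Ifit3 at chr19:34583531-34588731, Ifit1 at chr19:34640871-34650009, GRCm38, all on the + strand), yet they did not vary alike. Ifit1 had the lowest p of the antiviral genes, at 0.461, 2.19 and 2.67 CPM in Cx43FL and 0.248, 27.9 and 46.7 CPM in Cx43KO (log2 fold change 3.81, SE 1.31, adjusted p = 0.540) and its high values came from replicates 2 and 3 alone. Ifit3 was at 4.81, 12.3 and 9.44 CPM in Cx43FL and 11.2, 31.3 and 38.1 CPM in Cx43KO (log2 fold change 1.60, SE 0.62, adjusted p = 0.556), and replicate 1 lay inside the Cx43FL range. Of the 50-base stretches of the Ifit3 transcript, 51.2% also occur in the neighbouring copy Ifit3b, and reads mapping more than once were removed, so its level is uncertain. Ifit2 was at 28.1, 13.5 and 9.77 CPM in Cx43FL and 37.4, 19.1 and 18.3 CPM in Cx43KO, with its highest value in replicate 1 and the other Cx43KO libraries inside the range.

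**Figure D3:**
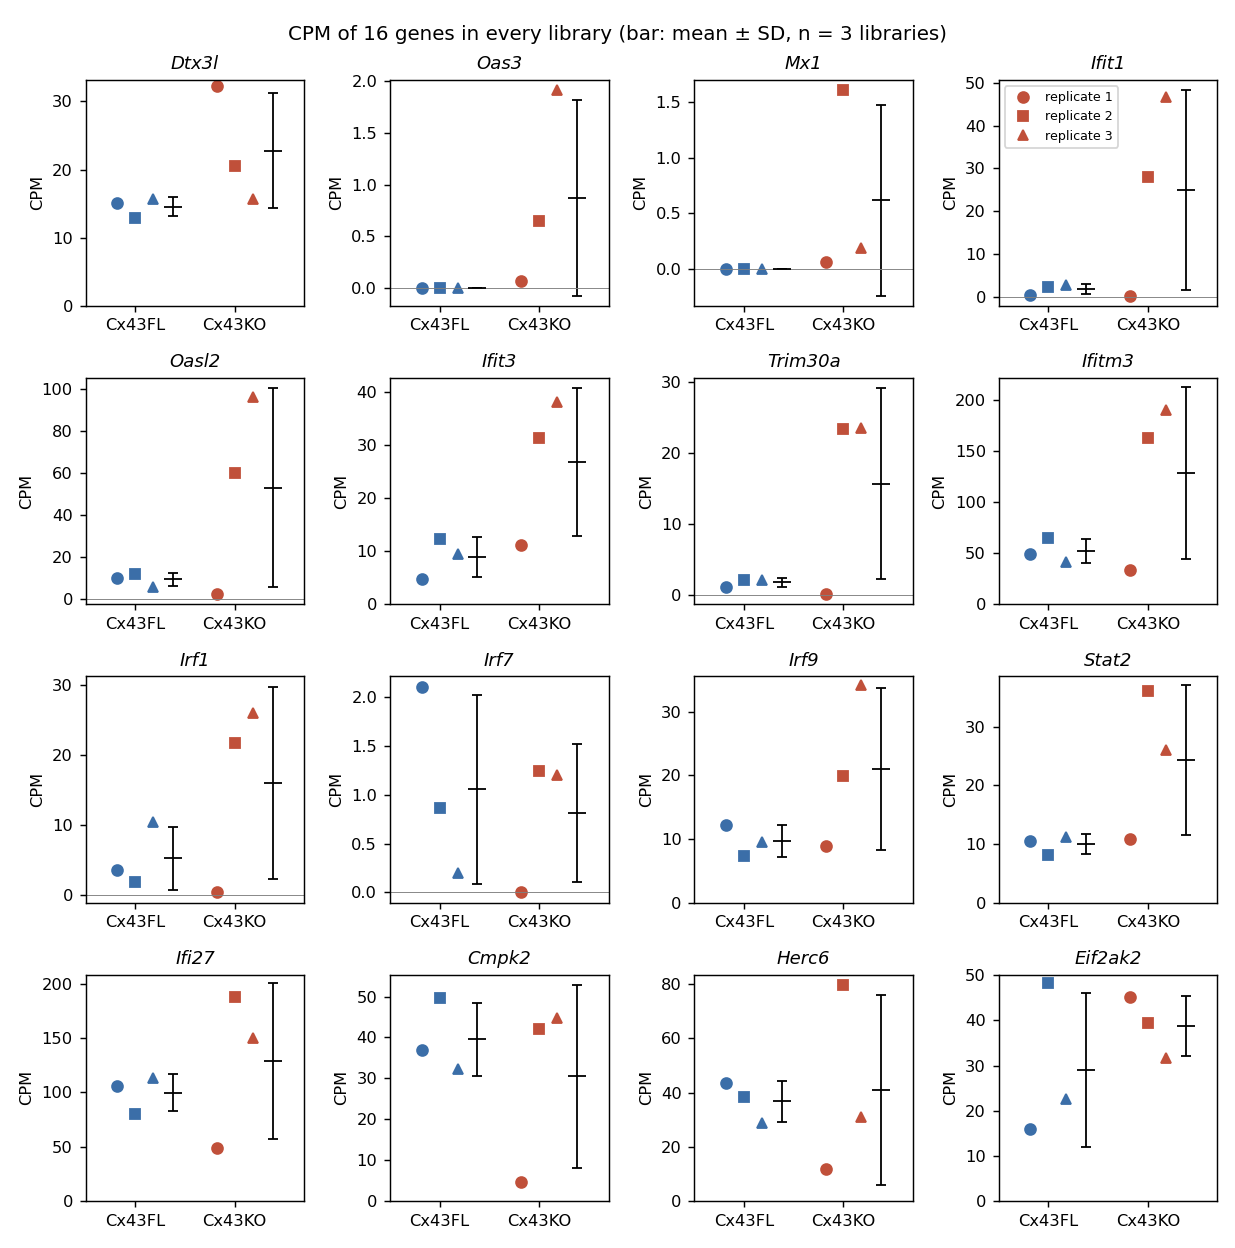
CPM (vertical axis) in each library of the antiviral genes that the naming rule picked (genotypes that do not overlap, lowest p, transcription factors, highest level in Cx43FL), with circles, squares and triangles for replicates 1, 2 and 3 and bars for mean ± SD of 3 libraries. Replicates 2 and 3 of Cx43KO lie above all Cx43FL libraries except in Irf7, Cmpk2, Herc6 and Eif2ak2; picking genes by low p favours that pattern.

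The OAS family senses double-stranded RNA and, through its active members, activates RNase L. Oasl2 was the only one with enough counts, at 10.4, 11.9 and 6.12 CPM in Cx43FL and 2.61, 60.2 and 96.3 CPM in Cx43KO (log2 fold change 2.48, SE 0.91, adjusted p = 0.541). Replicates 2 and 3 of Cx43KO stood far above the highest Cx43FL library, and replicate 1 was the lowest of the 6. Its neighbour Oasl1, on chromosome 5, had 0 counts in 4 libraries, 148 in Cx43KO replicate 2 and 1 in replicate 3. Oas2 had 8, 17 and 3 counts in Cx43FL and 0, 208 and 4 in Cx43KO. Oas3 had 0 in each Cx43FL library and 1, 16 and 62 in Cx43KO. Each low gene of the family thus had its counts mostly in 1 library, Oasl1 and Oas2 in replicate 2 and Oas3 in replicate 3. The Mx GTPases, which trap viral nucleocapsids, were similar: Mx1 had 0 in each Cx43FL library and 1, 40 and 6 counts in Cx43KO, and Mx2 had 26, 56 and 0 in Cx43FL and 1, 2 and 154 in Cx43KO.

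The ISG15 system attaches the ubiquitin-like protein ISG15 to other proteins. Isg15 itself was at 1.98, 2.45 and 0.782 CPM in Cx43FL and 0.124, 11.9 and 11.6 CPM in Cx43KO (log2 fold change 2.18, SE 1.28, adjusted p = 0.635). Usp18, which removes ISG15 and damps receptor signaling, had 15, 6 and 0 counts in Cx43FL and 0, 299 and 195 in Cx43KO (log2 fold change 3.69, SE 1.84, adjusted p = 0.604). Both were highest in replicates 2 and 3, and replicate 1 was the lowest for Isg15 and at 0, like Cx43FL replicate 3, for Usp18. The ligases differed. Herc6, the mouse ISG15 ligase, was at 43.5, 38.3 and 28.6 CPM in Cx43FL and 11.7, 79.8 and 31.2 CPM in Cx43KO, above the Cx43FL range in replicate 2 and inside it in replicate 3. Of its 50-base stretches 23.8% also occur in the overlapping gene Gm45193. Trim25, an E3 ligase that acts on the RNA sensor RIG-I, was at 41.1, 17.4 and 23.3 CPM in Cx43FL and 16.9, 47.4 and 49.2 CPM in Cx43KO (log2 fold change 0.47, SE 0.52).

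The cytosolic sensors of viral RNA gave a mixed picture. Ifih1, which encodes MDA5, was steady in Cx43FL at 7.64, 8.82 and 7.75 CPM and was at 7.95, 27.2 and 20.2 CPM in Cx43KO (log2 fold change 1.19, SE 0.61, adjusted p = 0.609). Ddx58, which encodes RIG-I, was at 7.31, 8.82 and 9.96 CPM in Cx43FL and 13.5, 7.76 and 17.5 CPM in Cx43KO, above the range in replicates 1 and 3. Dhx58, their regulator LGP2, was at 1.58, 1.39 and 0.716 CPM in Cx43FL and 0.124, 8.68 and 0.556 CPM in Cx43KO, above the range in replicate 2 and below it in the other Cx43KO libraries. The nucleic acid sensor Zbp1 had 4, 2 and 0 counts in Cx43FL and 4, 11 and 96 in Cx43KO. Eif2ak2, the RNA-activated kinase PKR that halts translation, was at 15.9, 48.3 and 22.6 CPM in Cx43FL and 45.1, 39.4 and 31.7 CPM in Cx43KO, and all 3 Cx43KO libraries fell inside the Cx43FL range. So did those of Adar, the deaminase that marks the cell's own RNA, with 19.2, 20.8 and 32.2 CPM in Cx43FL and 22.6, 23.6 and 19.2 CPM in Cx43KO. The exons of Adar overlap Chrnb2 on the opposite strand over 23.1% of their bases, and reads there may be assigned to either gene.

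The genes with the highest levels in Cx43FL were Ifi27, Ifitm3, Cmpk2, Herc6 and Eif2ak2, at mean levels of 99.8 ± 17.1, 52.1 ± 11.8, 39.6 ± 8.94, 36.8 ± 7.55 and 28.9 ± 17.1 CPM (SD, n = 3). Per kilobase of transcript, the level of Ifi27 was 103.6 and that of Ifitm3 76.8 CPM per kb, with Cmpk2 next at 12.4. Ifitm3, a membrane protein that stops viruses from fusing, was at 49.5, 64.9 and 41.7 CPM in Cx43FL and 33.2, 163 and 191 CPM in Cx43KO (log2 fold change 1.31, SE 0.53, adjusted p = 0.563). Replicates 2 and 3 lay above the highest Cx43FL library, and replicate 1 was the lowest of the 6. Ifi27 was at 106, 80.5 and 113 CPM in Cx43FL and 49.1, 188 and 149.8 CPM in Cx43KO (log2 fold change 0.37, SE 0.44, adjusted p = 0.809), with Cx43KO on both sides of the range. Cmpk2, a mitochondrial nucleotide kinase, was at 37.0, 49.5 and 32.2 CPM in Cx43FL and 4.72, 42.2 and 44.7 CPM in Cx43KO (log2 fold change -0.37, SE 0.66, adjusted p = 0.881), and its replicates 2 and 3 did not leave the Cx43FL range. Its chromosome 12 neighbour Rsad2, which encodes viperin, was at 5.66, 2.26 and 6.84 CPM in Cx43FL and 0.310, 16.6 and 1.11 CPM in Cx43KO, above the range in replicate 2 and below it in replicates 1 and 3. Bst2, or tetherin, which holds budding virus at the membrane, was at 5.53, 10.1 and 2.34 CPM in Cx43FL and 5.90, 16.6 and 6.98 CPM in Cx43KO.

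Parp9, Parp14 and Dtx3l lie side by side on chromosome 16 and act on ADP-ribosylation. Parp14 was at 1.71, 3.38 and 2.41 CPM in Cx43FL and 0.186, 19.5 and 0.957 CPM in Cx43KO. Parp9 was at 2.503, 1.19 and 13.7 CPM in Cx43FL and 2.17, 17.6 and 9.48 CPM in Cx43KO. Parp14 was high in replicate 2 only and Parp9 overlapped between the genotypes in replicates 1 and 3, so the 3 neighbours had 3 different orders of libraries. The exons of Parp9 and Dtx3l overlap on opposite strands over 10.3% and 8.63% of their bases, and reads there may be assigned to either gene.

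Of the remaining genes, Trim30a, a TRIM family member, was at 1.05, 2.12 and 2.15 CPM in Cx43FL and 0.124, 23.3 and 23.5 CPM in Cx43KO (log2 fold change 3.14, SE 1.27, adjusted p = 0.562). Rtp4, a chaperone for membrane receptors, was at 4.15, 2.92 and 3.19 CPM in Cx43FL and 1.06, 17.4 and 20.01 CPM in Cx43KO, and Lgals3bp, a secreted galectin-binding glycoprotein, was at 5.07, 13.9 and 23.1 CPM in Cx43FL and 5.96, 38.3 and 84.2 CPM in Cx43KO. In these genes replicates 2 and 3 of Cx43KO lay above all Cx43FL libraries. Xaf1, a factor that promotes cell death, was at 6.59, 21.5 and 2.21 CPM in Cx43FL and 0.559, 11.4 and 15.8 CPM in Cx43KO, inside the range in replicates 2 and 3. Ifi35 was at 2.24, 2.39 and 3.84 CPM in Cx43FL and 1.92, 3.78 and 0.926 CPM in Cx43KO, and Samd9l, which limits viral translation, at 3.69, 4.25 and 5.15 CPM in Cx43FL and 4.10, 1.89 and 1.91 CPM in Cx43KO. Samd9l had the most negative log2 fold change of the 32 (-0.73, SE 0.94), and its replicates 2 and 3 were the lowest of the 6 libraries. The low genes Ifi44 and Sp100 had their counts mainly in replicate 2: Ifi44 had 0, 0 and 3 counts in Cx43FL and 0, 204 and 23 in Cx43KO, and Sp100 had 3, 4 and 0 in Cx43FL and 0, 57 and 3 in Cx43KO.

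**Figure D4:**
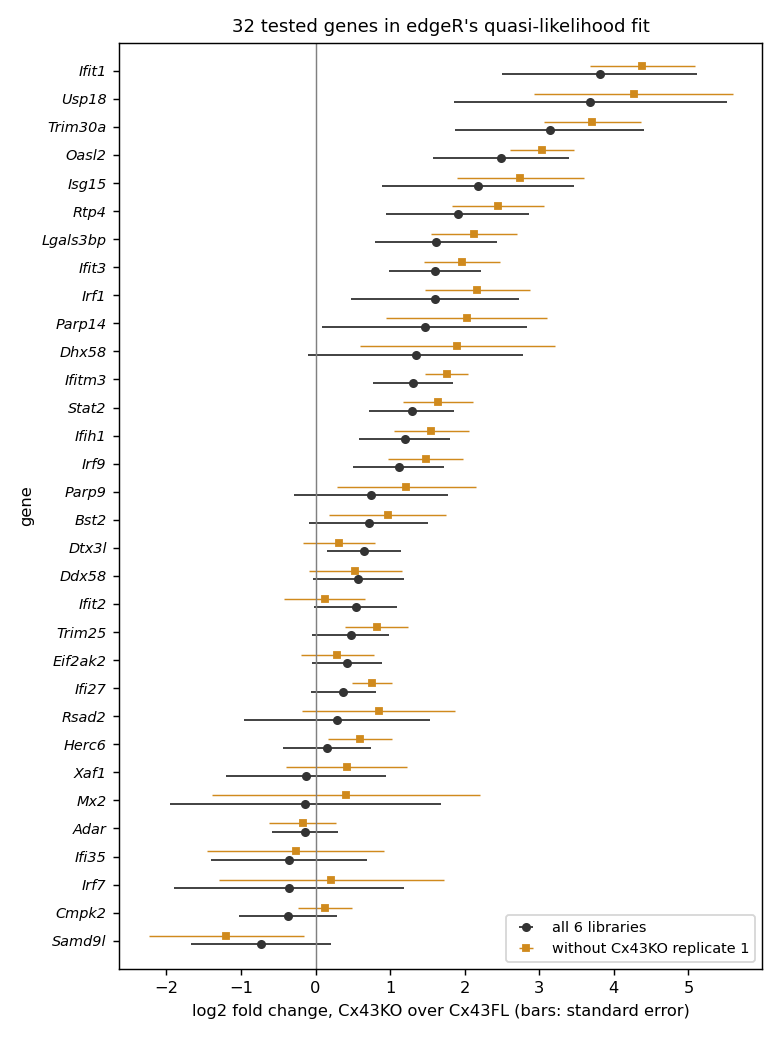
Log2 fold change of Cx43KO over Cx43FL for the 32 tested antiviral genes in edgeR's fit, with standard errors, over all 6 libraries (black) and without Cx43KO replicate 1 (orange). Ifit1 is at the top at 3.81 and Samd9l at the bottom at -0.73, and 25 of the 32 black points lie above 0.

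Single genes differed between the 2 libraries with high values. Of the 39 genes, 7 (Dhx58, Parp14, Rsad2, Oasl1, Oas2, Ifi44 and Sp100) were over 4 times higher in Cx43KO replicate 2 than in replicate 3, after 0.5 CPM was added, and 1 (Mx2) was over 4 times higher in replicate 3. Oasl1, Oas2, Ifi44 and Sp100 were too low to be tested. Among tested genes these were 3 and 1 of 32 (9.38% and 3.12%), against 4.24% and 3.10% of all tested genes. Counts this small are no result about the list. The highest of the 6 values was in replicate 2 in 16 genes, in replicate 3 in 14, in replicate 1 in 2 and in a Cx43FL library in 7. This covers all 39 genes, also those too low to be tested. The same count was not made over all genes, so it stands without a background.

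Upstream of these genes, interferon mRNAs were at or near 0. Of 11 ligand genes, 9 (Ifnb1, Ifna1, Ifna2, Ifna4, Ifna5, Ifnk, Ifne, Ifnl2 and Ifnl3) had 0 counts in every library, Ifng had 2 counts in Cx43FL replicate 3 and 0 in the other 5 libraries, and Il27 had 9, 16 and 1 in Cx43FL and 0, 19 and 2 in Cx43KO. A count of 0 allows up to 3 counts by counting error, and the mRNA of cells without the tagged ribosome was not the target of the purification. The receptor chains were present: Ifnar1 was at 22.4, 8.49 and 22.9 CPM in Cx43FL and 6.83, 24.6 and 37.6 CPM in Cx43KO. Ifnar2 was at 26.5, 35.8 and 13.0 CPM in Cx43FL and 7.57, 29.1 and 15.6 CPM in Cx43KO. Ifngr1, a chain of the interferon gamma receptor, was at 10.1, 10.4 and 2.87 CPM in Cx43FL and 7.51, 0.884 and 17.3 CPM in Cx43KO. The Cx43KO libraries lay on both sides of the Cx43FL range in Ifnar1 and Ifngr1, and replicate 1 of Cx43KO had the lowest value of both type I chains.

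Irf3, a factor activated by the RNA sensors themselves, was at 28.5, 22.7 and 22.5 CPM in Cx43FL and 12.6, 14.3 and 8.71 CPM in Cx43KO, every Cx43KO library being below every Cx43FL library (log2 fold change -1.05, SE 0.49, adjusted p = 0.600). Over the 41 ligand, receptor, kinase, transducer, feedback and induction genes on the list, 26 could be tested, 0 had an unadjusted p under 0.05 in either direction, and the median log2 fold change was 0.14. The kinases Jak1 and Jak2 were among the 3 genes whose genotypes did not overlap, Jak1 at 142, 155 and 168 CPM in Cx43FL and 171, 170.1 and 199 CPM in Cx43KO, and Jak2 at 92.2, 103 and 108 CPM in Cx43FL and 70.6, 63.6 and 77.5 CPM in Cx43KO. Of the 26, 3.85% lay above and 7.69% below in every Cx43KO library, against 8.08% and 7.45% of all genes, so this count is no result about the list, and none of these differences passed the test.

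Other interferon-inducible families had values in the same libraries. The immunity-related and guanylate-binding GTPases (12 genes) summed to 60.2 to 88.6 CPM in Cx43FL and to 64.9, 476 and 373 CPM in Cx43KO. Of 10 tested, 4 had an unadjusted p under 0.05, all higher, against 5.66% of all genes, and the median log2 fold change was 2.02, against 0.07. Among these 4, Gbp4 had 1, 6 and 2 counts in Cx43FL and 39, 135 and 180 in Cx43KO, and passed the filter on low counts through Cx43KO. The shares of this list and the next thus describe the tested genes only. Igtp was the first by p, at 5.34, 3.05 and 2.87 CPM in Cx43FL and 21.6, 50.9 and 42.9 CPM in Cx43KO (adjusted p = 0.490), above the range in replicate 1 too. The MHC class I presentation genes (10 genes) summed to 226 to 304 CPM in Cx43FL and to 199, 887 and 1211 CPM in Cx43KO, and 4 of 8 tested were higher at that level, with a median of 1.69, beside the same background. H2-D1 was at 6.45, 9.29 and 7.36 CPM in Cx43FL and 6.64, 95.7 and 162 CPM in Cx43KO (adjusted p = 0.490), but it has near-identical copies. With edgeR over all 6 libraries, 0 of these 18 tested genes were called. DESeq2 with its prior called 4 of the GTPases and 2 of the MHC class I genes, Igtp (adjusted p = 7.90e-07) and H2-D1 (adjusted p = 0.00343) among them. Without Cx43KO replicate 1, edgeR called 2 genes of each family, again including Igtp (adjusted p = 0.0190) and H2-D1 (adjusted p = 0.00272).

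**Figure D5:**
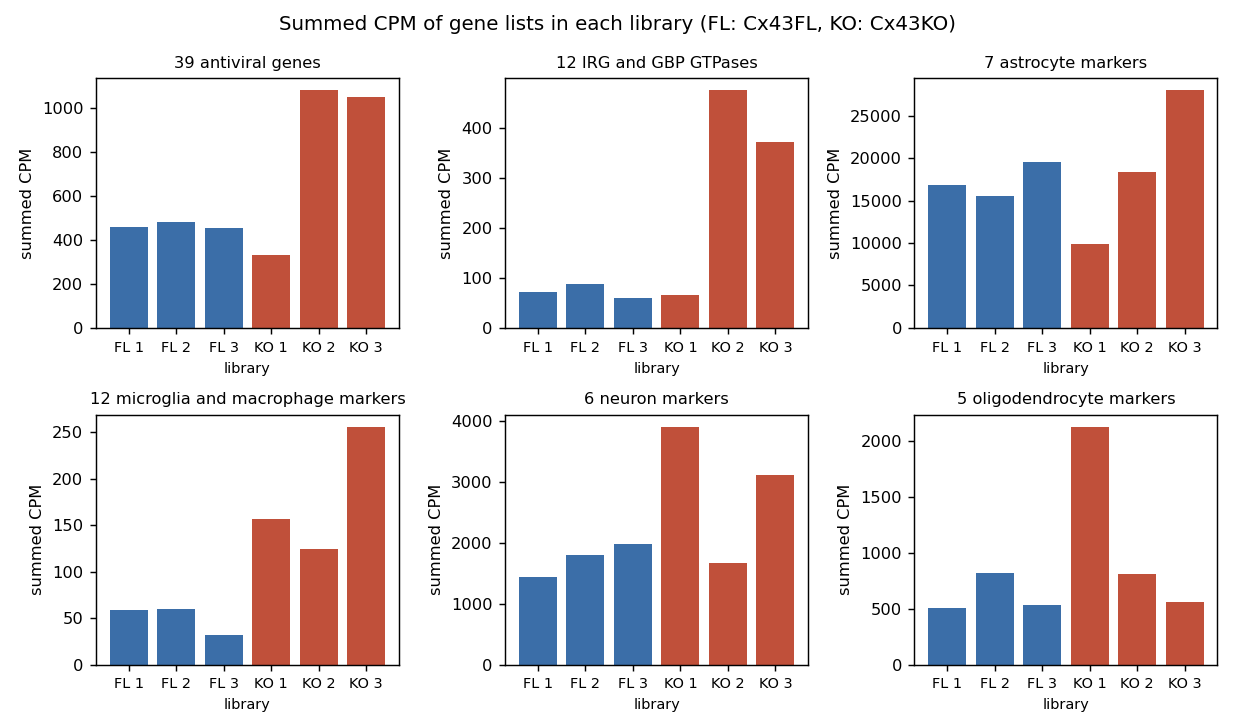
Summed CPM (vertical axes, from 0) of 6 gene lists in the 3 Cx43FL libraries (blue) and the 3 libraries labelled Cx43KO (red). The sums of the antiviral genes and of the GTPases are high in KO 2 and KO 3. The microglia and macrophage sum, though not every marker in it, is higher in all 3 KO libraries than in any FL library. KO 1 has the highest neuron and oligodendrocyte sums.

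Markers of other cells differed between the libraries as well. The 12 microglia and macrophage markers summed to 31.7 to 60.0 CPM in Cx43FL and to 157, 124 and 255 CPM in Cx43KO, with 6 of 11 tested higher at an unadjusted p under 0.05, against 5.66% of all genes. Itgam, with the lowest p of the 6, had 9, 0 and 3 counts in Cx43FL and 610, 209 and 135 in Cx43KO. It passed the filter on low counts through Cx43KO, so this share describes the tested markers only. Tmem119 had 15, 21 and 13 counts in Cx43FL and 0, 27 and 53 in Cx43KO, and C1qa 0, 0 and 4 in Cx43FL and 1, 88 and 83 in Cx43KO. The summed microglia level was thus higher than Cx43FL in Cx43KO replicate 1, where the antiviral genes were low. The part of these cells in the antiviral values was not tested. Of 4 T cell markers matched in the counts, Cd3e had 0 in every library, and the sum was at most 1.77 CPM, in Cx43KO replicate 2.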

How the data were processed

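Ribosome-bound mRNA was measured in 3 Cx43FL and 3 Cx43KO libraries, grouped by the labels. Per the study's methods, polysomal RNA was amplified (NuGEN Ovation), reads were mapped with STAR on mm10 with Ensembl annotation, reads mapping more than once were removed, and the rest were counted with HTSeq. The submitters' processing notes name bcl2fastq 1.8.4, STAR and HTSeq 0.5.3. Amplification from little RNA can add spread, and removing repeated mappings lowers genes with close copies. Strand use in counting, and the lane of each library, were not given in the sources used here.

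The authors deposited raw counts per transcript, not normalized. Of the transcripts, 73157 were matched to gene names of GENCODE M21 (GRCm38) and 2309 (1.605% to 1.778% of counts) were not. For each of the 22086 genes, the transcript most abundant over the 6 libraries stood for the gene. The tests had been set for counts per gene, and summed transcripts were an alternative. On these genes the libraries held 14787303 to 34733473 counts. Every pair of libraries differed beyond sampling noise (chi-square per degree of freedom 33.73 or more).

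The test between genotypes was that of edgeR 4.0.16 under R 4.3.3 (TMM, filterByExpr, quasi-likelihood F test, Benjamini-Hochberg over 13545 genes). A call needed an adjusted p under 0.05 with over 50 normalized counts on average in the higher group. CPM are on TMM-scaled library sizes. An exact permutation test, 2-sided, of log2(CPM + 0.5) was added for single genes, and it cannot go below p = 0.1. DESeq2 1.42.0 was an alternative. On simulated counts of the Cx43KO and Cx43FL design (13286 genes, 200 given a log2 change of 3), the edgeR script found 69% of the changed genes with 9 false calls. The changed genes were drawn from those above a minimum mean CPM, which some tested antiviral genes do not reach. The median log2 fold change of the tested antiviral genes was 0.73, and the share found for smaller changes or lower genes was not tested. The other alternatives were scaling, filters, the replicate block and leaving out each library. Same-numbered libraries did not deviate together.

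Genes given in every library were those whose genotypes did not overlap, the 5 with the lowest p, Irf1, Irf7, Irf9 and Stat2, the 5 highest in Cx43FL, and Ifnb1, Ifng, Ifnar1, Ifnar2, Ifngr1, Irf3 and Gja1. Others named with values were added to account for every gene or after their values were seen. The 39 genes and all lists were chosen with earlier results of these data known. Cgas was matched by its synonym, and Gbp6 and Trac had no match. RefSeq promoters were searched on both strands, and 50-base stretches of each transcript were compared with other genes. A value of 1 further gene on the list of named genes is not reported here.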

Additional observations from a re-analysis of the deposited data

How the results depend on the processing

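Leaving out Cx43KO replicate 1, where the antiviral genes were lowest as a group, changed the counts. Antiviral genes with an unadjusted p under 0.05 in edgeR, all higher, went from 6 of 32 tested to 16 of 35. On the same 32 genes they were 14, and the shares of all genes that were higher were 5.66% and 5.17%. Antiviral genes called went from 0 to 1 (Oasl2), and genes called in the whole table from 1 to 11. Over all single-library omissions these counts ran from 0 to 16 (0 without Cx43KO replicate 3), from 0 to 1 and from 0 to 11. The median log2 fold change of the tested antiviral genes ran from 0.56 to 1.47. These fits tested 32 to 35 antiviral genes, and on the same 32 the median without Cx43KO replicate 1 was 1.09. Genes called in the table were 0 with at least 10 counts in every library and with transcripts added up, 130 and 174 with DESeq2 with and without its prior, and 2 with the replicate block. DESeq2 without prior called 1 antiviral gene (Ifit1, log2 fold change 3.80). At an unadjusted p under 0.05 there were 11 of 39 antiviral genes with no filter, 12 of 39 with DESeq2 without prior and 3 of 32 with the replicate block. The shares of all genes at that level are not given for these settings or for the other omissions. These counts thus stand without a background and are no result about the list. The replicate numbers mark nothing shared, and same-numbered deviations correlated at 0.0114, -0.0040 and -0.0547, so the block is no paired design. The sign of a few log2 fold changes turned: Herc6 went to -0.20 and Ifngr1 to -0.44 with the replicate block, and over omissions Cmpk2 ran from -0.75 to 0.13, Herc6 from -0.78 to 0.59, Ifi27 from -0.0031 to 0.76, Irf7 from -0.85 to 0.62, Ifnar1 from -0.19 to 0.79 and Ifngr1 from -0.90 to 0.67. The cause of these shifts was not tested. For single genes, 289 values under the alternatives kept direction and side of the threshold, 2 became significant and 11 turned sign. With few counts in Oas3, Mx1, Oasl1, Oas2, Sp100, Zbp1 and Ifi44, the filter on low counts left these genes without a main test.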
